A study of Mus musculus with 8 samples.

Results

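Pericytes and vascular smooth muscle cells, together called mural cells, were studied in single-cell suspensions of newborn mouse parietal bone. They were selected by their mRNA: a cell had at least 2 unique molecular identifiers (UMIs, counts of single captured mRNA molecules) of Rgs5 or of Myh11, a UMI of at least 3 of the 7 genes Acta2, Tagln, Rgs5, Myh11, Notch3, Pdgfrb and Cspg4, none of Ptprc (blood cells) or Cdh5 (endothelium), and under 1% of its UMIs in Col2a1 (cartilage). Cells that met the osteoblast rule, meaning 10 or more UMIs of Col1a1 together with 2 or more UMIs of any 2 of Runx2, Sp7 and Ibsp, were left out. This gave 1198 mural cells among the 46420 cells that passed quality control (500 or more genes detected, mitochondrial UMIs below 10%), or 2.58%. There were 412 in WT and 786 in Het libraries, from 74 (WT S2) to 365 (Het S4) per library.

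Mural cells wrap the endothelial tube. Pericytes lie inside the basement membrane of capillaries, while smooth muscle cells form contractile coats around arterioles, arteries and veins. Endothelial PDGF-B recruits them through PDGFRβ, contact with endothelium signals through NOTCH3, and their tone is set by receptors, ion channels and cyclic nucleotides that act on actin and myosin. In bone, vessels enter with the osteogenic cells, and perivascular cells lie next to bone-forming and blood-forming cells.

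The study compared WT pups with heterozygous (Het) pups in which 1 Col1a2 allele encodes a proα2(I) chain of type I procollagen with a glycine of its triple helix replaced, a model of osteogenesis imperfecta. Pups were 4 to 5 days old, and all libraries carried the same strain label, B6.129(FVB)-Col1a2tm1Mcbr/J. Each of 4 WT and 4 Het libraries pooled parietal bone cells of several animals of 1 genotype after collagenase digestion, so the library was the replicate and differences between animals were not seen. The 3′ kit of version 3 served for WT libraries S1 and S2 and Het libraries S3 and S4, while WT libraries S5 and S6 and Het libraries S7 and S8 came from version 3.1 and were counted with a later software release, so the effects of kit and software cannot be told apart. The mutation is carried in the germ line. Mural cells listed Col1a2 at 1251 to 4971 CPM (UMIs of a gene in the summed mural cells of a library, scaled to the same total in every library), and since the substitution does not remove the mRNA, its level does not check the labels.

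The selected cells carried the mRNAs that define mural cells. In the 8 libraries the lowest, median and highest levels in mural cells were 5174, 6827 and 8338 CPM for Rgs5, a brake on G protein signalling, beside 19.4, 29.4 and 84.8 CPM in the other cells. For Notch3, the receptor that mural cells use to read endothelial ligands, they were 756, 1167 and 1511 CPM beside 8.49, 15.2 and 22.7, and for Pdgfrb 626, 724 and 979 CPM beside 25.8, 50.8 and 68.5. The contractile genes varied more between libraries. Acta2 (smooth muscle actin) stood at 492, 1719 and 2985 CPM beside 49.5, 219 and 430.4, Tagln (transgelin) at 223, 860.2 and 1895 CPM beside 32.6, 70.5 and 306 and Myh11 (smooth muscle myosin) at 118, 303 and 416 CPM beside 0.787, 1.58 and 4.64. These genes chose the cells, so the levels describe them and test nothing. Near the limits of the rule, 43 members had exactly 2 UMIs of their leading gene and 206 had exactly 3 of the 7 genes, while 287 cells stayed outside with 1 UMI of Rgs5 or Myh11 and 64 with only 2 of the 7 genes. Of cells that met both limits, 143 were left out for Cdh5, 30 for Ptprc, 60 for Col2a1 and 42 as osteoblasts.

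The suspensions differed in depth and make-up. Libraries held 30480239 to 85162035 UMIs, and the median mural cell held 3289 UMIs (Het S4) to 11467 UMIs (Het S7). Blood cells, taken by 3 or more blood markers that are not erythroid, made up 51.1% and 45.0% of cells in WT S1 and S2. They made up 0.288% to 8.66% in the other 6 libraries, and erythroid cells are not in these shares. Cartilage cells made up 2.14% to 60.6%. In mural cells of the kit version 3.1 libraries cartilage markers summed to 785 to 2085 CPM, against 42.5 to 350 CPM with version 3, and in every library this was 0.024 to 0.045 of the level in the other cells. Markers of erythroid cells ran from 31.2 to 18726 CPM in mural cells, of osteoblasts from 1012 to 6120 CPM, of fibroblasts from 134 to 979 CPM, of endothelium from 178 to 210 CPM, of blood cells other than erythroid from 4.53 to 191 CPM and of glia from 25.9 to 105 CPM. Skeletal muscle markers stayed at 1.21 to 14.5 CPM, with Myf5, Myod1 and Pax7 at 0, and Cd3e and Sox10 were also at 0. Pairs of libraries shared 2 to 61 barcodes, 0 of them mural. Of the mural cells, 41 (3.42%) lay nearest to simulated doublets, and 697 (58.2%) had UMIs of 3 or more markers of another class, from 65 of 365 in Het S4 to 73 of 74 in WT S2. The first principal component of the summed mural profiles (70.0% of the variance) separated the kit versions, and the second (9.64%) set WT S2 and Het S3 at opposite ends.

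Compared with all other cells, mural cells were set apart by an ATP-sensitive potassium channel, the nitric oxide receptor, an intermediate filament and a mitochondrial protein. Because the cells were chosen by related mRNAs, the comparison is a description with no test. Of 3834 genes with at least 50 CPM in mural cells, 1567 (40.9%) were higher in mural than in other cells in all 8 libraries, and the 15 with the largest mean difference are shown in the plot of levels by library. Higd1b, a mitochondrial inner membrane protein of the HIG1 family, stood at 118 to 240.2 CPM (median 182) in mural cells and 0.322 to 1.63 CPM in other cells, a mean difference of 6.66 on the log2(CPM + 1) scale (SD 0.32, n = 8). The subunits of the ATP-sensitive potassium channel, which links membrane voltage to metabolism, were Kcnj8 at 555 to 748 CPM (median 673) against 2.18 to 40.9 CPM in other cells, and Abcc9 at 531 to 1790.3 CPM (median 1192) against 8.08 to 28.5 CPM. Both subunits of soluble guanylate cyclase, which makes cyclic GMP when nitric oxide binds, were in the same group: Gucy1a1 at 513 to 760 CPM (median 655) against 3.59 to 20.9 CPM and Gucy1b1 at 129 to 286 CPM (median 206) against 1.70 to 3.76 CPM. In none of these 5 genes did the ranges of mural and other cells meet.

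**Figure D1:**
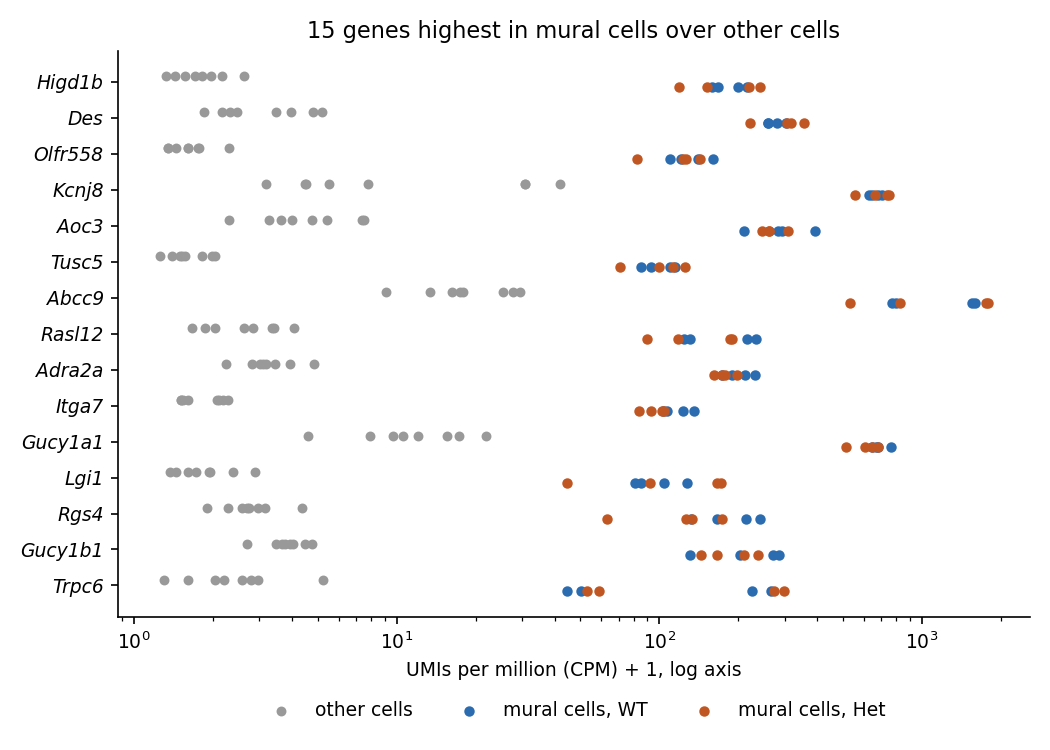
Levels in mural cells (blue WT, orange Het, 1 point per library) and in all other cells of the same libraries (grey) of the 15 genes with the largest mean log2 difference, as CPM + 1 on a log axis. The mural and grey points do not meet for any gene, and Abcc9 and Trpc6 fall into a lower and a higher group of 4 mural points each.

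The other 10 genes of that group belonged to several functions. Des (desmin, the muscle intermediate filament) lay at 221 to 353 CPM (median 290.4) and Itga7 (the laminin-binding integrin α7) at 82.6 to 134 CPM (median 103), with 0.841 to 4.19 and 0.501 to 1.27 CPM in other cells. Adra2a, an α2-adrenergic receptor, lay at 161 to 229.9 CPM (median 182) and Rgs4, a relative of Rgs5, at 62.4 to 241 CPM (median 149). The remainder were Aoc3 (a vascular amine oxidase), Olfr558 (an olfactory receptor), Tusc5, Rasl12, Lgi1 and Trpc6, with mean log2 differences from 5.62 (Trpc6) to 6.25 (Olfr558). Trpc6, a cation channel opened by diacylglycerol, showed how far S1 to S4 lay from S5 to S8, which differ in kit and in software. It lay at 43.6, 49.4, 52.3 and 57.7 CPM in mural cells of S1 to S4 and 266, 225, 273 and 298 CPM in S5 to S8. Prkg1, the kinase that cyclic GMP activates, ran from 83.9 to 119 CPM with kit version 3 and from 3463 to 3917 CPM with version 3.1. For these genes the gap between S1 to S4 and S5 to S8 was wider than that between genotypes.

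Of lists of genes by function, 24 of 28 contractile genes, 14 of 16 pericyte genes and 21 of 33 vasoactive receptors and channels were higher in mural than in other cells in all 8 libraries, beside 2695 of all 31053 genes listed (8.68%). Among genes with at least 50 CPM, where the share over all genes was 40.9%, these were 18 of 18 contractile, 14 of 14 pericyte and 13 of 13 vasoactive genes. Endothelin and angiotensin receptors stood out among the vasoactive genes. Ednra, the endothelin A receptor, lay at 228 to 687 CPM (median 478) in mural cells with a median of 39.9 CPM in other cells, and Agtr1a, the angiotensin II receptor, at 89.4 to 335 CPM (median 175) with 8.24 CPM. Pde5a, which breaks down cyclic GMP, lay at 158 to 359 CPM (median 246) with 11.1 CPM. Contractile genes outside the rule included Mylk (myosin light chain kinase) at 494 to 789 CPM (median 652) with 66.0 CPM in other cells and Cald1 (caldesmon) at 1951 to 2856 CPM (median 2385) with 591 CPM. The pericyte gene Fam162b was detected at 0 to 1.09 CPM, and Anpep was higher than in other cells in 6 of 8 libraries.

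Of Notch pathway genes 8 of 16 were higher in mural than in other cells in all libraries, and of 33 vascular ligands and receptors 9 were. At 50 CPM or more these were 5 of 6 and 7 of 16, the latter near the 40.9% of all genes at that level. Heyl, a transcription factor that Notch switches on, lay at 164 to 289 CPM (median 235) with a median of 4.56 CPM in other cells, and the ligand Jag1 at 88.6 to 146 CPM (median 113) with 25.0 CPM. The ligands Dll1, Dll4 and Jag2 did not go above 2.71 CPM in any library. Among the vascular ligands, Angpt2 (angiopoietin 2) lay at 138 to 200.1 CPM (median 157) with 8.58 CPM in other cells, while its receptor Tek lay at 0 to 7.63 CPM (median 0.815). Kitl (stem cell factor, a ligand of blood-forming cells) lay at 169.9 to 418 CPM (median 236) with 30.6 CPM in all other cells and 302 CPM in endothelial-like cells, S1pr3 (a receptor of sphingosine 1-phosphate) at 176 to 288 CPM (median 241) with 9.75 CPM and Gjc1 (connexin 45) at 338 to 685 CPM (median 476) with 42.7 CPM. Pdgfra, which marks fibroblasts, lay at 3.63 to 17.4 CPM (median 14.8) with 66.9 CPM.

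Mural cells were rich in mRNAs of the basement membrane they share with endothelium. Their type I collagen mRNA lay below that of all other cells pooled, osteoblasts included, with medians above those of endothelial-like cells. Of 15 basement membrane genes 11 were higher in mural than in other cells in all libraries, or 10 of the 12 with at least 50 CPM. The collagen IV chains lay at 4547 to 5863 CPM (median 5138) for Col4a1, with 455 CPM in other cells, and 2411 to 3419 CPM (median 2629.8) for Col4a2, with 289 CPM. Endothelial-like cells had a median of 5107 CPM of Col4a1, within the mural range. Of 34 interstitial matrix genes 9 were higher in all libraries, or 9 of the 27 with at least 50 CPM, a share below that of all genes at that level (40.9%). Col5a3 lay at 536 to 840 CPM (median 696) with 11.9 CPM in other cells, Fbn1 (fibrillin 1) at 497 to 652 CPM (median 542) with 87.3 CPM, and Col6a1 at 1426 to 1873 CPM (median 1531) with 625 CPM. Col1a1 was lower than in other cells in all 8 libraries, at 726 to 5912 CPM (median 3079) with a median of 10013 CPM, and Col1a2 likewise, at 1251 to 4971 CPM (median 2607) with 7288 CPM. The other cells include the osteoblasts that the rule left out of the mural cells. Endothelial-like cells had medians of 1015 CPM of Col1a1 and 800.3 CPM of Col1a2. Type I procollagen mRNA was thus listed in mural cells, beside osteoblast markers that summed to 1012 to 6120 CPM there, and the part of free mRNA in it was not tested. Of 19 procollagen folding and modification genes 1 (Tmem38b) was higher than in other cells in all libraries. None of 23 genes of the unfolded protein response of the endoplasmic reticulum (ER-UPR) was, and of 39 genes of the integrated stress response (ISR) 2 were, Cebpg and Nars, beside 8.68% of all genes. At 50 CPM or more these were 0 of 14 procollagen folding, 0 of 12 ER-UPR and 2 of 9 ISR genes, beside 40.9% of all genes at that level.

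The cells were split by Myh11 to describe a smooth muscle end of the set. Myh11 reached 2 UMIs or more in 233 cells (Myh11-positive), 1 UMI in 142 and none in 823, which Rgs5 alone had brought in (Rgs5-only). Myh11-positive cells were deeper (median 7206 UMIs per cell, against 5555) and carried more Rgs5 (median 61 against 31 UMIs per cell), a gene that chose the cells. The limit on Myh11 was set by hand, and whether the cells form 1 range or separate types was not tested. All 8 libraries held at least 10 cells of each kind, and their summed levels were compared within each library as a description with no test, since Myh11 is a gene of the rule. Of 4154 genes with at least 50 CPM in either kind, 183 (4.41%) were higher in Myh11-positive cells in all 8 libraries and 132 (3.18%) were lower in all 8.

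The contractile genes were the clearest group on the smooth muscle side. Of 25 with at least 20 CPM, 20 were higher in Myh11-positive than in Rgs5-only cells in all 8 libraries, beside 223 of 7637 genes (2.92%), and their median log2 difference was 1.20, beside -0.10 over all genes. Myl9, the regulatory light chain of smooth muscle myosin, had a lowest, median and highest level of 115, 289 and 577 CPM in Rgs5-only cells and 499.7, 1932 and 4076 CPM in Myh11-positive cells of the 8 libraries, a mean log2 difference of 2.62. Casq2, which stores calcium in the sarcoplasmic reticulum, had 0, 0.880 and 3.63 CPM and 11.5, 58.8 and 129.8 CPM, a difference of 4.62 (SD 0.76). Levels of Casq2 in Rgs5-only cells were near or at 0, so the log2(CPM + 1) scale understates its difference. Lmod1 (leiomodin 1, which nucleates actin filaments) had 2.94, 6.33 and 32.4 CPM and 38.4, 194 and 516 CPM, and Actg2 (γ smooth muscle actin) 11.4, 35.7 and 116 CPM and 83.5, 440.5 and 673 CPM. Myocd, the cofactor that drives smooth muscle genes, had 0, 2.51 and 7.36 CPM and 7.69, 43.2 and 65.6 CPM. Each of these genes was higher in Myh11-positive cells in every library.

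Contractile genes that did not follow were Des, with a median of 298 CPM in Rgs5-only and 272 CPM in Myh11-positive cells (higher in 3 of 8 libraries), and Itga8 (integrin α8), with 78.2 and 47.4 CPM (higher in 2 of 8). Cnn1 (calponin 1) had the widest spread between libraries, and was higher in 6 of 8.

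**Figure D2:**
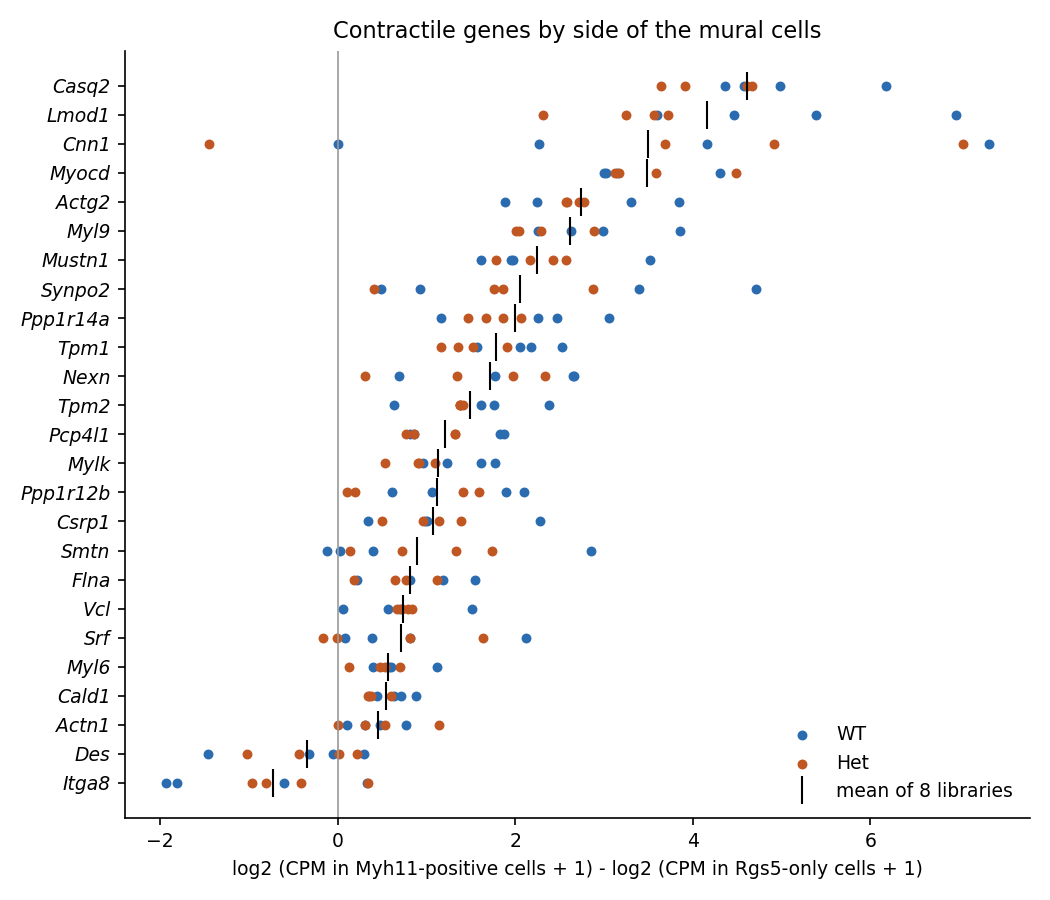
Difference between Myh11-positive and Rgs5-only mural cells in log2(CPM + 1) for 25 contractile genes, 1 point per library (blue WT, orange Het), with the mean of the 8 libraries as a black bar. All 8 points lie right of the zero line for 20 genes, and the means of Des and Itga8 lie left of it.

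The promoters of these genes are shown because the smooth muscle genes moved together between the ends of the set. Serum response factor (SRF), together with myocardin, binds the CArG box, a motif of 10 letters. RefSeq promoters (build GRCm38.p6) were searched on both strands in the 250 bases before the start of transcription, and a match on both strands was counted once. The table held 29 promoters for 25 of the 28 contractile genes, and 4 of the 29 (13.8%) held a box, those of Myl9, Srf and Vcl and 1 of Myl6. Of all 32851 promoters 1.47% held one. With 1 of the 6 central letters free, Pcp4l1 was added (5 of 29, 17.2%), beside 8.59% of all promoters. Acta2, a gene of the rule, held 2 such near-matches and no full box. The windows below are written 5′ to 3′ with the boxes and near-matches in capitals. In the Myl9 window the first run of capitals is a full box and the second a near-match, in Srf both are full boxes, in Vcl and Myl6 the box is full, and in Acta2 both are near-matches.
Myl9, chr2:156775283-156775394, plus strand: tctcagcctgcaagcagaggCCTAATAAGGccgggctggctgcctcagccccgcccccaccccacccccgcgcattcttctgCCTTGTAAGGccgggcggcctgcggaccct
Srf, chr17:46556195-46556264, minus strand: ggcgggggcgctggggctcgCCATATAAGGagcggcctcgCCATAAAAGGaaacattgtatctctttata
Vcl, chr14:20929151-20929200, plus strand: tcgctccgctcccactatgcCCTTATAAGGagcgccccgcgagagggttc
Myl6, chr10:128493030-128493079, minus strand: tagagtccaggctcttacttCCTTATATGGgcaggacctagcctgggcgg
Acta2, chr19:34255378-34255477, minus strand: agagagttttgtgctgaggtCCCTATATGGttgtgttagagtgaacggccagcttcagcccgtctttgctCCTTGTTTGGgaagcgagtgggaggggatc
The boxes of Myl9 and Vcl began 161 and 227 bases before the start, those of Srf 82 and 62, that of Myl6 50, and the near-matches of Acta2 84 and 34. Srf itself was measured at medians of 17.4 CPM in Rgs5-only and 38.7 CPM in Myh11-positive cells, higher in 6 of 8 libraries. A match describes letters and not binding.

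Outside the contractile list, the smooth muscle side held single channel, connexin, Notch target and matrix genes. Slc38a11 (a solute carrier) had 0, 2.80 and 12.2 CPM in Rgs5-only cells (lowest, median and highest of 8 libraries) and 34.6, 58.4 and 178 CPM in Myh11-positive cells, and Kcnab1 (a subunit of voltage-gated potassium channels) 1.57, 9.22 and 35.3 CPM and 29.9, 137 and 474 CPM. The other genes among the 10 with the largest differences, of those higher in all 8 libraries, were Lmod1, Casq2 and Actg2, given above, and Nrip2, Myom1 (myomesin 1), Cabp1, Il13ra1 and Dgkb, with mean log2 differences of 2.65 (Dgkb) to 3.96 (Nrip2). Gja4 (connexin 37) had 50.1, 73.4 and 116 CPM and 92.2, 232 and 338 CPM, higher in every library, whereas the connexin genes Gjc1 and Gja1 were higher in 3 and 1 of 8. The Notch targets Hey2, at 7.57, 15.995 and 19.2 CPM and 26.9, 65.4 and 125 CPM, and Nrarp, at 10.4, 18.3 and 29.4 CPM and 46.1, 94.8 and 285 CPM, were also higher in all 8, whereas Heyl was higher in 3 of 8 and the median of 11 Notch pathway genes was -0.02. Eln, the elastin gene, had medians of 71.6 and 545 CPM and was higher in all 8. Ccnd2 (cyclin D2) was higher in all 8 as well, with medians of 282 and 519.5 CPM.

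On the Rgs5-only side lay part of the pericyte list, some receptors, and matrix genes. Of 15 pericyte genes 3 were lower in Myh11-positive cells in all 8 libraries, beside 201 of 7637 genes (2.63%): Abcc9, Ebf1 and Steap4. Abcc9 had 605, 1225 and 1849 CPM in Rgs5-only cells and 364, 879 and 1680 CPM in Myh11-positive cells, and Steap4 (a metalloreductase) 292, 512 and 561 CPM and 214, 301 and 485 CPM. Gucy1b1 went the other way in all 8, and the median of the list was -0.21. Agtr1a had 100.1, 188 and 336 CPM and 17.8, 88.5 and 273 CPM, and S1pr3 207, 268 and 319 CPM and 89.8, 164 and 231 CPM, each lower in Myh11-positive cells in every library. The laminin chain Lama2 was lower in all 8 (medians 321 and 166 CPM), and the collagen IV chains were not ordered by side (Col4a1 higher in 3 of 8).

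Mgp (matrix Gla protein, an inhibitor of calcification) had medians of 12057 CPM in Rgs5-only and 7914 CPM in Myh11-positive cells and was lower in all 8 libraries, as were Col3a1, Aspn, Lum and Fbln1, the 5 interstitial matrix genes of 34 with that pattern. Of the genes lower in all 8 libraries, the 10 with the largest differences were Mmp9, Mitf, Col25a1, Lum, Tgfbi, Spp1, Rapgef4, Pid1, Ahr and Lyn, with mean log2 differences of -2.59 (Mmp9) to -1.77 (Lyn). Several of these means rest on single libraries. The 10 Myh11-positive cells of WT S2 held 0 CPM of Lum, Tgfbi, Rapgef4, Ahr and Lyn, among others, with differences of -6.66 (Lum) to -5.38 (Lyn). Lyn differed by only -0.015 in Het S7 and -0.039 in Het S8, and Mmp9 by -7.17 in Het S8. Col25a1, a transmembrane collagen, had 51.9, 277 and 653 CPM and 0, 62.5 and 442 CPM. Markers of other cells lay on the same side: the median log2 difference was -1.11 over 3 fibroblast markers, -1.01 over 6 osteoblast markers, -0.52 over 7 cartilage markers and -2.46 over 3 erythroid markers. Mmp9 and Spp1 are also made by osteoclasts and bone cells, and Lum by fibroblasts. The part of other cells' mRNA in the Rgs5-only profile was not tested.

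The first question about genotype was whether mural cells made up the same share of the suspension. Mural cells were 2.85%, 1.56%, 1.003% and 1.83% of cells in WT S1, S2, S5 and S6. In Het S3, S4, S7 and S8 they were 3.11%, 4.87%, 3.85% and 2.46%. The means were 1.81% ± 0.774 (SD, n = 4) and 3.57% ± 1.03 (SD, n = 4). WT S1 overlapped the Het range, and the difference of 1.76 percentage points (1.79 within kit version 3 and 1.73 within 3.1) had a two-sided exact permutation p of 0.0571 over 70 assignments made without regard to kit, which allow no p below 0.0286. Without cells with markers of another class the mean shares were 0.423% ± 0.345 (SD, n = 4) in WT and 1.63% ± 1.71 (SD, n = 4) in Het, a difference of 1.21 percentage points (2.44 within kit version 3 and -0.0283 within 3.1, exact permutation p = 0.257). Blood and cartilage cells took changing parts of the suspensions. Another total left out both, and also cells with 3 or more erythroid markers, except osteoblasts, mural cells and endothelial-like cells. In this total the shares were 11.0%, 13.99%, 2.46% and 3.19% in WT and 4.74%, 6.86%, 7.47% and 6.30% in Het. The means were then 7.66% ± 5.72 (SD, n = 4) and 6.34% ± 1.17 (SD, n = 4), a difference of -1.32 percentage points (-6.69 within kit version 3 and 4.06 within 3.1, exact permutation p = 0.657). The direction of the difference in share thus turned with the cells counted in the total. The total without blood, erythroid and cartilage cells still counted mural cells with 3 or more erythroid markers. Mural cells with these markers were 58.8% and 98.6% of the mural cells in WT S1 and S2 and at most 11.3% (Het S3) elsewhere. A total without blood and cartilage cells alone was not made, and the part of the erythroid class in the turn was not tested. Per 100 endothelial-like cells there were 35.3, 25.7, 31.5 and 34.4 mural cells in WT and 29.7, 38.5, 67.5 and 74.5 in Het, with the groups overlapping within kit version 3 and not within 3.1 (exact permutation p = 0.143).

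Myh11-positive cells made up 20.6%, 13.5%, 18.4% and 18.2% of mural cells in WT S1, S2, S5 and S6. In Het S3, S4, S7 and S8 the shares were 28.3%, 15.6%, 25.0% and 18.0%. The groups overlapped, and the difference of 4.06 percentage points (4.91 and 3.21 within kit versions 3 and 3.1) had an exact permutation p of 0.314. Since 2 UMIs are reached more easily in deeper cells, each cell was also thinned to 2000 UMIs, and the mean shares were then 11.5% ± 2.54 (SD, n = 4) in WT and 9.32% ± 4.25 (SD, n = 4) in Het, a difference of -2.18 percentage points. Without cells with markers of another class the difference was -4.15 points (3 WT and 4 Het libraries), under 5% mitochondrial UMIs it was 9.10 points (exact permutation p = 0.0571), and with 1 library left out it ran from 1.87 (without Het S3) to 6.10 points (without Het S4). The balance of the 2 ends was thus not shown to differ between genotypes.

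**Figure D3:**
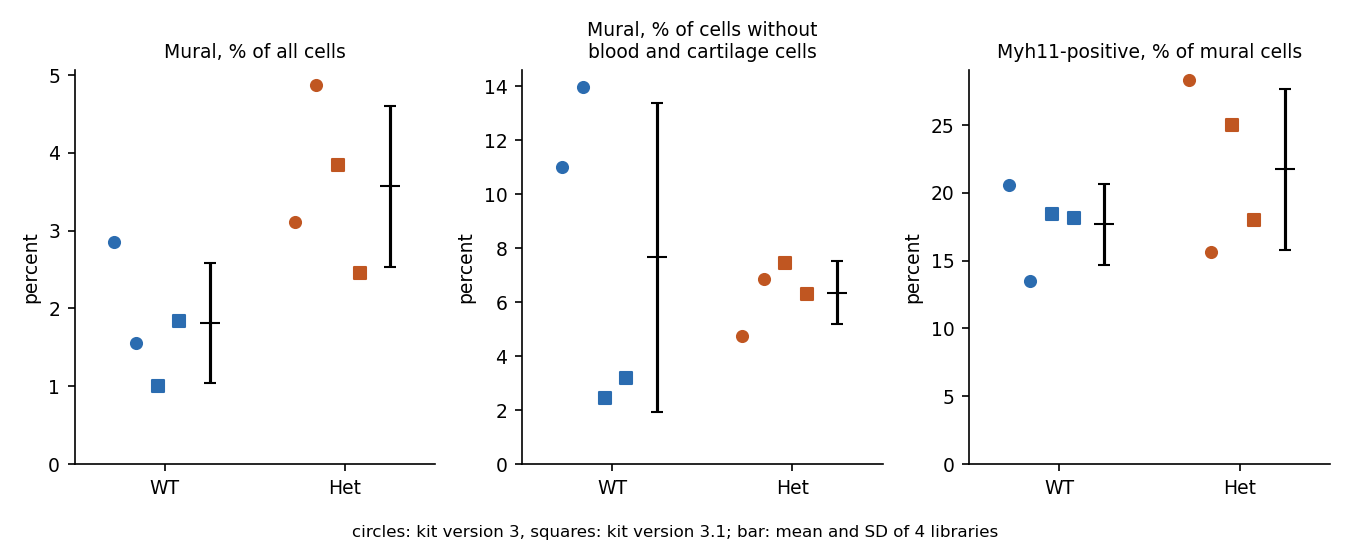
Share of mural cells among all cells (left), among cells other than blood, erythroid and cartilage cells (middle), and of Myh11-positive cells among mural cells (right), in percent, for 4 WT (blue) and 4 Het (orange) libraries, with circles for kit version 3, squares for 3.1 and a black bar for mean and SD. Het exceeds WT within each kit version on the left, while WT circles lie highest in the middle.

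The expression of single genes was compared between genotypes in the summed mural counts, with kit version in the model and 9256 genes tested by edgeR's quasi-likelihood test. Only Cxcl12 passed an adjusted p of 0.05, in the direction lower in Het, so 1 gene (0.0108%) was called lower and 0 (0%) higher. At an unadjusted p under 0.05 there were 468 genes (5.06%), of which 273 (2.95%) were higher and 195 (2.11%) lower in Het. TMM-normalized CPM (scaled by the trimmed mean of M-values) are given in these comparisons.

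Cxcl12, the chemokine that holds blood-forming and other CXCR4-bearing cells in their niche (chr6:117168535-117181367, plus strand, GRCm38), measured 317, 661, 78.2 and 84.5 CPM in WT libraries S1, S2, S5 and S6, and 136, 70.6, 35.5 and 22.8 CPM in Het libraries S3, S4, S7 and S8. Within each kit version both Het libraries lay below both WT libraries, while across kits the groups overlapped. The log2 change was -1.91 (SE 0.27, edgeR adjusted p = 0.0277), -2.29 within kit version 3 and -1.40 within 3.1. The mRNA was concentrated in few cells. The 5 highest mural cells held 158 of 277 Cxcl12 UMIs in WT S1 (57.0%) and 188 of 258 in WT S2 (72.9%), against 23.2% to 56.1% in the other 6 libraries. Without the 5 highest cells of each library the levels were 136, 176, 36.8 and 56.0 CPM in WT and 79.1, 52.4, 25.6 and 14.8 CPM in Het, not TMM-normalized, and the refitted change was -1.21 with an edgeR adjusted p of 0.0593, which missed the threshold. These cells were picked by Cxcl12 itself, and 5 cells are a larger part of the 74 mural cells of WT S2 than of the 365 of Het S4. In mature osteoblasts of the same libraries the log2 value of Cxcl12 was -1.66 (edgeR adjusted p = 0.209), and the difference of mural cells from them was -0.11 (SE 0.35, edgeR adjusted p = 0.984), so the value was not shown to be particular to mural cells. It was -0.79 in all other cells, -1.01 in fibroblast-like cells and -0.08 in endothelial-like cells, and none of these passed the test. The value of Cxcl12 in mural cells also missed the threshold when library S3, S4, S6 or S8 was left out (adjusted p of 0.0572, 0.236, 0.0603 and 0.123) and in Rgs5-only cells alone (0.0523).

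**Figure D4:**
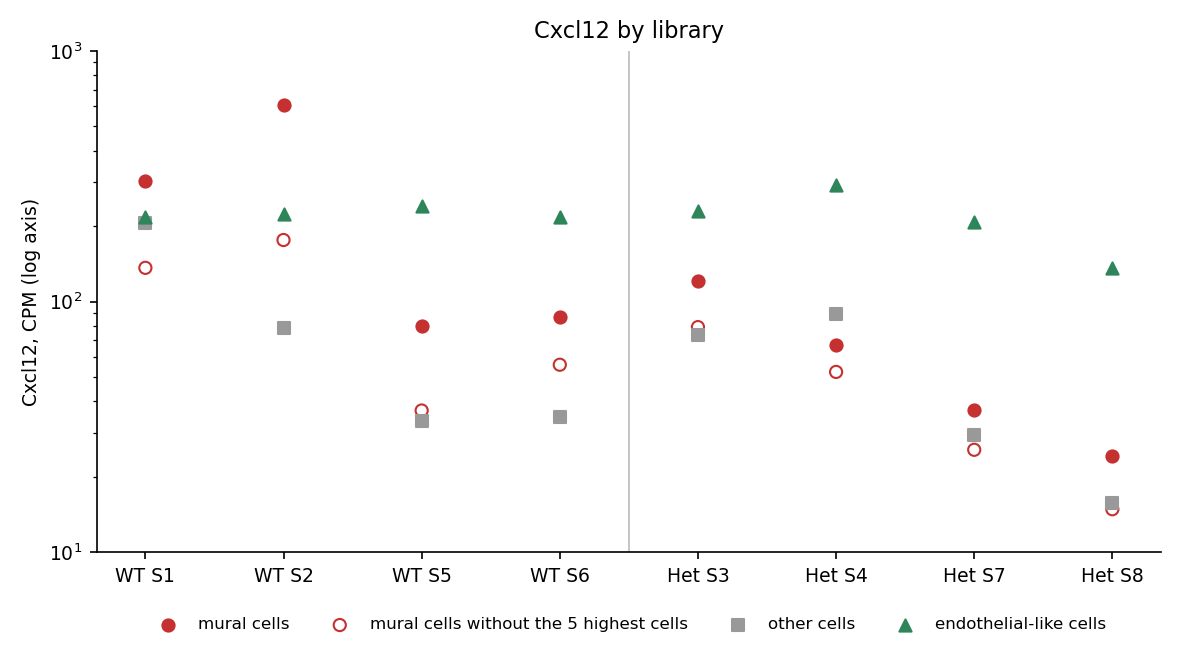
Cxcl12 in CPM, not TMM-normalized, on a log axis for each library, in mural cells (red), in mural cells without the 5 cells highest in Cxcl12 (open red), in other cells (grey) and in endothelial-like cells (green). The red points of WT S1 and S2 stand highest, and open and filled red points lie far apart there.

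The 9 genes with the next lowest p at a mean of at least 20 CPM had edgeR adjusted p-values of 0.0848 to 0.0866, so none passed. Pde4d, a phosphodiesterase of cyclic AMP, measured 24.0, 10.2, 380.4 and 444 CPM in WT libraries S1, S2, S5 and S6, and 26.1, 32.8, 736 and 940.5 CPM in Het libraries S3, S4, S7 and S8, a log2 change of 0.94 (SE 0.16, edgeR adjusted p = 0.0848), with Het above WT within each kit version and a wide gap between kits. Klf2, a transcription factor induced by blood flow and by tissue handling, measured 27.5, 10.2, 27.3 and 35.2 CPM in WT libraries S1, S2, S5 and S6, and 37.6, 43.5, 67.0 and 111 CPM in Het libraries S3, S4, S7 and S8, a change of 1.26 (SE 0.24, edgeR adjusted p = 0.0866). For Klf2 every Het library lay above every WT library, but 5 cells held 44.3% to 100% of its UMIs in each library, and without them Het S3 (9.27 CPM, not TMM-normalized) lay below WT S1, S5 and S6 (10.5, 10.3 and 12.97 CPM). Ccdc3, a secreted protein of fat and endothelium, measured 130.5, 120.4, 167 and 113 CPM in WT libraries S1, S2, S5 and S6, and 76.7, 69.9, 88.2 and 66.6 CPM in Het libraries S3, S4, S7 and S8, with all Het below all WT libraries and a change of -0.81 (SE 0.15, edgeR adjusted p = 0.0866). Fkbp5, a target of glucocorticoids, had a value of 1.26, and the imprinted genes Peg3 and Plagl1 had values of 0.72 and 1.20. In the other cells Peg3 and Plagl1 stood at 1.32 and 1.26. Below 20 CPM, Ptx3, a secreted pentraxin of innate immunity named here after its values were seen, measured 37.8, 33.3, 9.48 and 13.2 CPM in WT libraries S1, S2, S5 and S6, and 16.3, 7.84, 2.45 and 1.90 CPM in Het libraries S3, S4, S7 and S8, a change of -1.93 (SE 0.32, edgeR adjusted p = 0.0848) with Het below WT within each kit version.

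The remaining 3 of these genes are markers of cartilage and bone. Col2a1 and Col9a1 had changes of 1.73 and 1.30 in mural cells beside 1.29 and 1.38 in the other cells. All 7 cartilage markers had an unadjusted p under 0.05 and a higher value in Het, with a median of 1.21 beside 1.31 in the other cells. Col2a1 is 1 of these 7 and was capped by the mural rule, so its values are a description with no test. The 3 tested erythroid markers had an unadjusted p under 0.05 and a lower value, with a median of -3.04 beside -3.07. Bglap (osteocalcin) measured 510.5, 20.5, 27.3 and 27.3 CPM in WT libraries S1, S2, S5 and S6, and 16.3, 9.27, 3.27 and 9.51 CPM in Het libraries S3, S4, S7 and S8, a fitted value of -3.90 in mural cells beside -2.67 in the other cells. In WT S1 a single cell held 427 of the 446 Bglap UMIs, and without the 5 highest cells S1 stood at 10.4 CPM, not TMM-normalized. Without 1 library the fitted value of Bglap ran from -4.44 to -1.81. Summed cartilage markers in mural cells were highest in the 4 kit version 3.1 libraries, which also held the most cartilage cells, though S5 held more of these than S7 and had the lower sum. Mural cells with 3 or more erythroid markers were 58.8% and 98.6% of the mural cells in WT S1 and S2, the libraries richest in blood cells, and 0% to 11.3% in the other 6, while the summed erythroid level was highest in S2 (18726 CPM) and lower in S1 (1178 CPM) than in S3 (4813 CPM). The part of free mRNA in them was not tested.

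By function, Cxcl12 was the only gene of the lists that passed the test in mural cells. Of 28 contractile genes 26 were tested, 6 higher and 20 lower in Het, with a median log2 change of -0.11 that turned with the kit (0.20 in the libraries of version 3 alone and -0.52 in those of 3.1 alone), and 1, Casq2 at -1.26 (SE 0.38), with an unadjusted p under 0.05. Of 16 pericyte genes 15 were tested, 3 higher and 12 lower (median -0.13), and Cox4i2, a subunit of the hypoxia-linked cytochrome oxidase, and Rgs4 had an unadjusted p under 0.05, at -0.50 (SE 0.11, edgeR adjusted p = 0.227) and -0.59 (SE 0.16, edgeR adjusted p = 0.412). Of 16 Notch pathway genes 12 were tested, 2 higher and 10 lower (median -0.18), and Hey2, Heyl and Nrarp, with -0.56, -0.31 and -0.68, had an unadjusted p under 0.05. Of 33 vascular ligands and receptors 26 were tested, with a median of -0.02, and besides Cxcl12 the genes Vegfa (-0.74) and Tgfb2 (0.29) had an unadjusted p under 0.05. Of 33 vasoactive genes 23 were tested (median 0.05), with Agtr1a at 0.34 and Rgs16 at -0.79 at that level. The 15 basement membrane genes had a median of 0.05 and none at an unadjusted p under 0.05, and the 33 of 34 interstitial matrix genes tested a median of -0.05, with Thbs1 and Lum at that level. Of 20 immediate early genes 18 were tested (median -0.01, 3 with an unadjusted p under 0.05, all higher), and the 16 cell cycle genes had a median of -0.13 with 1 (Rrm2). Over all genes tested the counts were 4567 higher and 4689 lower, and 5.06% had an unadjusted p under 0.05 (2.95% higher and 2.11% lower).

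Since the mutation alters type I procollagen, genes of procollagen folding and cell stress were compared next. Of 19 procollagen folding genes 10 were higher and 9 lower in Het (median 0.01), none with an unadjusted p under 0.05. Of 23 ER-UPR genes 22 were tested, 11 higher and 11 lower (median 0.00), none with an unadjusted p under 0.05. Hspa5, the ER chaperone BiP, measured 754, 1045, 593 and 709 CPM in WT libraries S1, S2, S5 and S6, and 1110.3, 1004, 527 and 592 CPM in Het libraries S3, S4, S7 and S8, a log2 change of 0.01 (SE 0.14, edgeR adjusted p = 0.999). Of 39 ISR genes 25 were tested, 13 higher and 12 lower, with a median of 0.01 and 1 (Pycr1) with an unadjusted p under 0.05. Atf5, a transcription factor of the ISR and the mitochondrial stress response (chr7:44812256-44816658, minus strand, GRCm38), measured 56.1, 35.9, 36.7 and 37.0 CPM in WT libraries S1, S2, S5 and S6, and 66.9, 41.3, 36.3 and 32.3 CPM in Het libraries S3, S4, S7 and S8, a change of -0.01 (SE 0.19, edgeR adjusted p = 0.999). The levels of Atf5 overlapped between genotypes. Of 11 mitochondrial UPR genes 3 were higher and 8 lower (median -0.22), with Hspe1 and Dnaja3 lower at an unadjusted p under 0.05, and Hspa9, the mitochondrial chaperone mtHSP70, had a change of 0.09 (SE 0.15, edgeR adjusted p = 0.999). Trib3 and Asns were too low to be tested. The 8 UMIs of Trib3 came from Het S3, S4 and S7, and Asns, which makes asparagine, measured 8.01, 5.12, 10.7 and 8.81 CPM in the WT and 18.0, 20.7, 8.98 and 9.51 CPM in the Het libraries, higher in Het within kit version 3 and overlapping within 3.1.

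Whether these changes differed from those in mature osteoblasts (mOBs) of the same libraries was tested as a genotype by cell type term with the library as a block. The mOBs were osteoblasts with over 3.5% of UMIs in Col1a1, 1075 cells, 42 to 299 per library. The change differed for 35 of 10826 genes (0.323%), 13 higher (0.12%) and 22 lower (0.203%) in mural cells, and 944 (8.72%) had an unadjusted p under 0.05. Of the 22, Acta2 and Tagln are genes of the mural rule. Of the ISR genes that could be tested in mural cells (25), 4 were among the 22: Atf5, Slc1a5, Eif4ebp1 and Nars. A further 10 ISR genes, among them Slc7a5, entered this comparison through their counts in mOBs alone and are left out of that count. The median log2 change over the ISR list was 0.01 in mural cells and 0.84 in mOBs, beside -0.00 and 0.01 over all genes tested.

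Atf5 showed the pattern most plainly. In mOBs it measured 43.8, 39.8, 21.8 and 30.2 CPM in the WT libraries and 239.8, 198, 66.5 and 123 CPM in the Het libraries, and in mural cells, also without TMM, 53.4, 32.9, 37.4 and 38.1 CPM in the WT libraries and 59.5, 39.4, 37.9 and 34.2 CPM in the Het libraries. Het mOBs lay above WT mOBs without overlap, and Het mural cells did not. The difference between the 2 changes was -1.93 (SE 0.27, adjusted p = 0.00427). Eif4ebp1, which encodes the translation repressor 4E-BP1, measured 121, 125, 71.5 and 77.4 CPM in the WT libraries and 427, 411, 121 and 232 CPM in the Het libraries in mOBs and 108, 139, 91.6 and 78.9 CPM in the WT libraries and 152, 114, 63.0 and 56.4 CPM in the Het libraries in mural cells, a difference of -1.56 (SE 0.23, adjusted p = 0.00641). Slc7a5, the large neutral amino acid transporter, measured 6.60, 6.51, 7.42 and 6.87 CPM in the WT libraries and 75.3, 77.0, 23.9 and 30.1 CPM in the Het libraries in mOBs and 7.63, 16.5, 4.82 and 12.7 CPM in the WT libraries and 7.26, 10.2, 4.68 and 6.04 CPM in the Het libraries in mural cells. Slc7a5 passed the filter on low counts only through the mOBs, where Het libraries were high, so its levels are a description with no test. Slc1a5 (a glutamine transporter) and Nars (asparaginyl-tRNA synthetase) had differences of -1.78 (SE 0.33, adjusted p = 0.0252) and -0.90 (SE 0.17, adjusted p = 0.0358). The calls of Atf5 and Eif4ebp1 were kept when each library was left out in turn and in 10 of 14 other alternatives each, and were lost with kit version not in the model, in kit version 3.1 alone, in Myh11-positive cells alone and with thinned cells, where the difference of Atf5 was -0.57. Over the 14 alternatives the difference of Eif4ebp1 ran from -1.66 to -1.36. Slc1a5 kept its call in 4 and Nars in 2 of the 8 fits without 1 library.

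**Figure D5:**
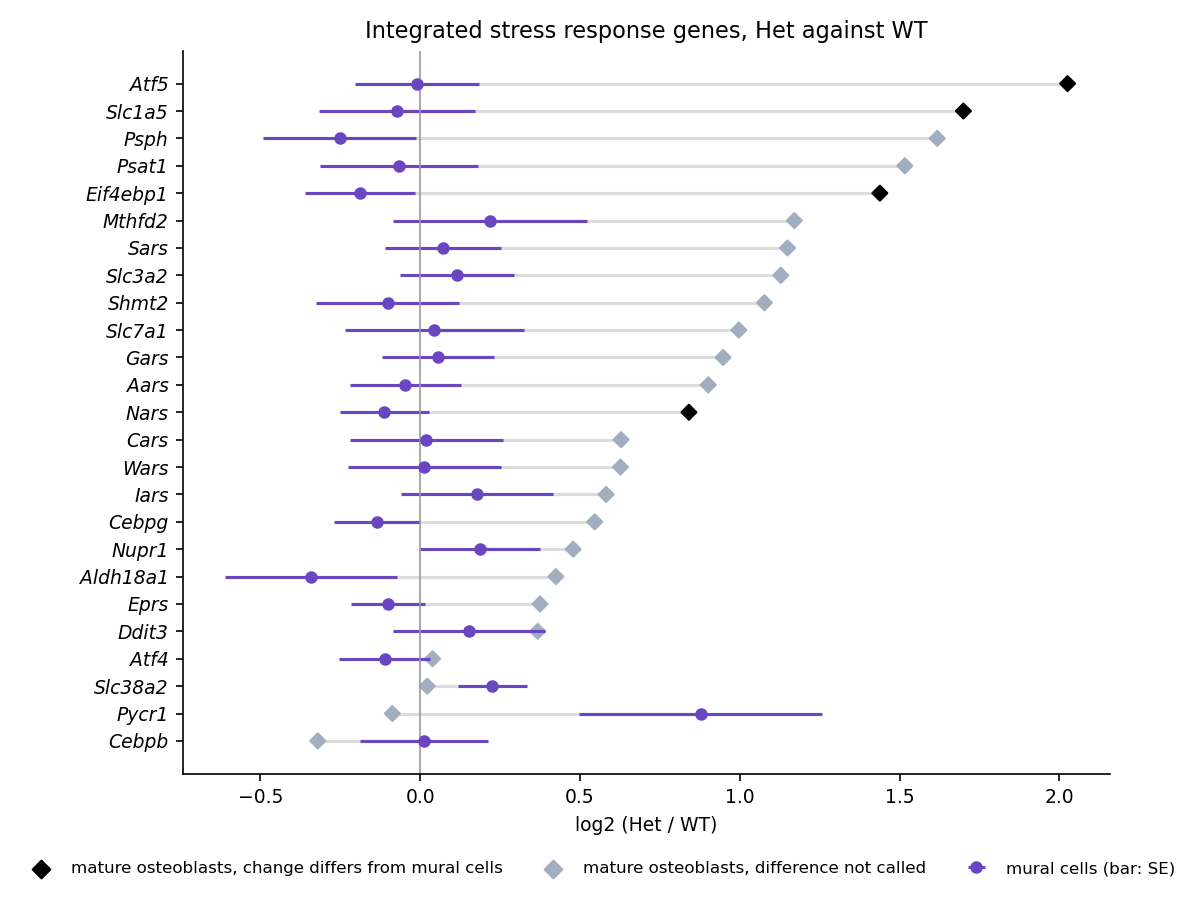
Log2 ratio of Het to WT for the 25 ISR genes tested in mural cells, in mural cells (purple, bar for SE) and in mature osteoblasts (diamonds, black where the change differed from that in mural cells at an adjusted p under 0.05). Purple points lie around zero, from -0.34 to 0.88, and the diamonds reach 2.03 (Atf5).

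Other genes with a difference lower in mural cells included Ank2 (ankyrin 2), at -1.57 (SE 0.22, adjusted p = 0.00427), Tppp3, at -2.20 (SE 0.33, adjusted p = 0.00641), Slc6a9 (a glycine transporter), at -2.63 (SE 0.41, adjusted p = 0.00897), Fdps (farnesyl diphosphate synthase), at -1.81 (SE 0.34, adjusted p = 0.0299), and Map1b, at -1.09 (SE 0.19, adjusted p = 0.0204). With 1 library left out in turn, Ank2 and Tppp3 kept the call in 8 of 8 fits (and in 10 and 9 of 14 other alternatives, with Tppp3 turning to 3.66 in thinned cells), Slc6a9 in 6, Map1b in 4 and Fdps in 2. The contractile genes Acta2 and Tagln, which also chose the mural cells and are given with no test, had changes of -0.43 and -0.24 in mural cells (0.49 and 0.55 within kit version 3, -1.36 and -1.03 within 3.1) and 1.55 and 1.77 in mOBs. In mOBs Acta2 measured 12.6, 15.9, 132 and 99.3 CPM in the WT libraries and 104, 48.7, 212 and 343 CPM in the Het libraries, and in mural cells 1505, 2082, 904 and 1932 CPM in the WT libraries and 2985, 1948, 637 and 492 CPM in the Het libraries. Higher in mural cells were the differences of Klf2, at 1.55 (SE 0.25, adjusted p = 0.0111), and Fos, at 1.22 (SE 0.22, adjusted p = 0.0204), both immediate early genes, as well as Ctsh, Ntm, Ikzf2 and Sned1. Adarb2 and Gpha2 were also among the 13, but Adarb2 was too low for a test in mOBs alone and Gpha2 in either cell type alone, so they are named with no test. Klf2 kept its call in 8 of 8 such fits but in only 6 of 14 other alternatives (0.74 to 3.42), Sned1 in 7, Ikzf2 in 5, Fos and Ctsh in 4 and Ntm in 2. The value of Fos was -1.16 in mOBs and -0.01 in mural cells. The other 5 of the 13, S100a8, S100a9, Stfa1, BC100530 and Gm5483, are expressed by neutrophils, and in haematopoietic-like cells they averaged 3280 to 17084 CPM. S100a9 measured 145, 80.0, 8.44 and 2.72 CPM in the WT libraries and 0, 95.005, 1.28 and 1.01 CPM in the Het libraries in mural cells and 565, 314, 2.70 and 0.832 CPM in the WT libraries and 0, 3.85, 0 and 0 CPM in the Het libraries in mOBs. In mOBs it was highest in S1 and S2, the libraries richest in blood cells, and in mural cells S1, S2 and S4 were high. The part of blood cell mRNA in these 5 genes was not tested.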

How the data were processed

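Single-cell suspensions of parietal bone were captured with 10x 3′ kits, and the authors deposited filtered matrices of UMI counts per gene and cell, made with Cell Ranger 5.0.0 (kit version 3) or 6.0.1 (kit version 3.1) on mm10, per the file headers. Cells were filtered, and mural cells, mOBs and other cells taken, as the report states. Doublets were marked by simulation and kept. Counts were summed per library and cell class and tested with edgeR 4.0.16 in R 4.3.3 (filterByExpr, TMM, quasi-likelihood test, Benjamini-Hochberg adjustment, threshold 0.05), with kit version as covariate in the reported fits. The comparison with mOBs used the library as a block. Shares were compared by two-sided exact permutation tests. Levels are CPM of summed counts, with a pseudocount of 1 CPM on the log2 scale. The members, lists and tests were chosen with earlier results of these data known. Genes named are those of the rule, the 3 most abundant and the called ones of each list, the 10 lowest p at 20 CPM or more, the 15 highest against other cells and the 10 highest in each direction between the ends of the set at 50 CPM or more and of 1 sign in all 8 libraries; other list members were named after their values were seen. The scripts were tested on simulated data. P-values measure the spread between pooled libraries. Positions are from GENCODE M21 (30934 of 31053 genes matched), promoters from RefSeq GRCm38.p6. DESeq2 1.42.0 was an alternative. Some members of the lists are counted but not reported here by name.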

Additional observations from a re-analysis of the deposited data

Results flagged for a closer look

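In 44 groups of 4 libraries, 2 had 1 library farther from the rest than Dixon's critical value allows, about as many as chance gives at 1 in 20. These were Bglap in mural cells of WT S1, at 510.5 CPM, of which 1 cell carried 427 of 446 UMIs, and Atf5 in mural cells of WT S1, at 56.1 CPM.

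The Het to WT change differed between mural cells and mOBs for 35 genes in the edgeR fit with the library as a block. On the log2 scale, mural minus mOB, the difference was -1.93 for Atf5, -1.78 for Slc1a5, -1.56 for Eif4ebp1 and -0.90 for Nars, all of the ISR list, 1.22 for Fos and 1.55 for Klf2. For Acta2 (-2.17) and Tagln (-2.30), which chose the mural cells, the difference is a description and no test. The same holds for genes of the 35 too low to be tested in 1 or both cell types alone: Slc7a5 (-3.11), Cabp1, Rgs6, Cav1, Adarb2, Gpha2 and the neutrophil genes S100a8, S100a9, Stfa1, BC100530 and Gm5483.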

How the results depend on the processing

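Depth limits what can be called: summed mural profiles held 424977 to 2350861 UMIs, from 74 to 365 cells. The mural share under a limit of 5% mitochondrial UMIs differed by 1.79 percentage points and then reached the smallest exact permutation p the design allows, 0.0286. Of the genes called by genotype in mural cells (1), the count was 10 with DESeq2, 129 with no filter on low counts and 0 with kit version not in the model. It was 0 with a stricter mural rule, 5 under 5% mitochondrial UMIs and 4 with cells thinned to 2000 UMIs. Without cells with markers of another class it was 2, in 7 libraries, since S2 kept 1 mural cell and was left out. It was 9 without cells nearest to simulated doublets and 12 in Myh11-positive cells alone. In Rgs5-only cells alone it was 1, Pde4d (higher in Het) and not Cxcl12. It was 0 to 5 when 1 library was left out (5 without S7, 0 without S3, S4, S6 or S8, 2 without S2 or S5). Chosen after seeing the data, it was 0 without the 5 cells highest in Cxcl12, 13 in kit version 3 alone and 7 in 3.1 alone. The adjusted p of Cxcl12 in mural cells was 0.113 under the stricter rule, 0.281 without cells with markers of another class (a fit that also lacks S2) and 1.0 with kit version not in the model.

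Of the genes whose change differed from mOBs (35), the count was 19 with DESeq2, 226 with no filter, 0 with kit version not in the model, 15 under 5% mitochondrial UMIs, 0 with thinned cells (5 libraries), 23 in Myh11-positive cells alone and 13 to 66 when 1 library was left out (13 without S4, 18 without S2, 66 without S5). Chosen after seeing the data, it was 18 without the 5 cells highest in Cxcl12, 161 in kit version 3 alone and 3 in 3.1 alone. The median of the ISR list was 0.21 in kit version 3 alone and -0.19 in 3.1 alone, and that of the contractile list 0.20 and -0.52. With thinned cells the difference turned for Cav1 (2.74), Tppp3 (3.66), Myl12a (1.04), Fos (-0.70) and Ntm (-0.042). BC100530 turned to -1.89 without simulated doublets and -1.09 in Myh11-positive cells alone and ran from -1.78 (without S4) to 4.32 over the libraries left out, and Gm5483 turned to -0.28 and -0.25 and ran from -3.27 (without S4) to 4.98. The cause was not tested.

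Same-numbered libraries of a kit correlated at 0.0116 and 0.0490 in their deviations. With so few libraries per group and kit, both pairs of a kit give the same value. These values therefore cannot show whether the numbers pair the libraries. With a replicate block 2 genes were called in mural cells (Bglap and Cxcl12) and 41 in the comparison with mOBs.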
